A study of Mus musculus with 12 samples.

Results

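The genes described here are 9 members of the Notch pathway, taken by symbol from a fixed list: the receptors Notch1, Notch2 and Notch3, the nuclear cofactors Rbpj and Maml1, and the target and feedback genes Hes1, Heyl, Dtx1 and Nrarp. Each matched 1 row, so 9 of the 55335 gene rows are covered. They were measured in thymocytes of mice aged 6 weeks, in 4 groups of 3 libraries: RNA-seq of wild-type mice (WT), RNA-seq of mice lacking miR-181a/b-1 (KO), ribosome footprints of WT mice and ribosome footprints of KO mice. Cells of all groups were put into cycloheximide, a drug that holds ribosomes in place, and both assays used a commercial ribosome profiling kit. No source used here gives sex, strain or how the deletion was made. In bulk thymocytes, fewer cells of a type and less RNA per cell cannot be told apart.

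Notch receptors are cleaved when they bind a ligand on a neighbouring cell. The freed intracellular part enters the nucleus and joins the DNA-binding protein RBPJ and a Mastermind coactivator such as MAML1, and this complex switches on target genes. In the thymus, Notch1 signalling commits progenitors to the T cell lineage and carries them through the early stage that lacks CD4 and CD8, after which it declines. Among its targets, Hes1 and Heyl encode transcriptional repressors, Dtx1 encodes the ubiquitin ligase Deltex1, and Nrarp encodes an ankyrin-repeat protein that limits the activity of the nuclear complex. Nrarp is also a published target of miR-181, which is why the family's sequences are shown first.

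A microRNA pairs with messages mainly through its seed, bases 2 to 8 counted from the 5′ end. The mature sequences below, from RefSeq (GRCm38.p6), have the seed in capitals; the deleted pair of genes encodes the first 2 of them, at chr1:137966468-137966490 and chr1:137966650-137966673 on the plus strand.
mmu-miR-181a-5p: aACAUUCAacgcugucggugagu
mmu-miR-181b-5p: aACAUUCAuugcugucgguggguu
mmu-miR-181c-5p: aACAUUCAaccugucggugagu
mmu-miR-181d-5p: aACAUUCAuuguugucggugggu
All 4 share the seed ACAUUCA, whose complement in a message reads UGAAUGU. The same miR-181a-5p and miR-181b-5p sequences are also encoded by a second pair of genes on chromosome 2, and miR-181c-5p and miR-181d-5p by chromosome 8, none of which is in the deleted pair. Among the rows of these other genes, that of Mir181d fell in footprints, from 102 reads in WT to 23 in KO. This was -1.53 on the log2 scale (edgeR FDR 0.00911, with the block 0.122). The rows of Mir181c (-0.22), Mir181a-2 (0.04) and Mir181b-2 (-0.54) were not called there (edgeR FDR 0.426, 0.919 and 0.462). Whether reads of the deleted genes were placed on the Mir181d row was not tested. Where that complement lies in the members' messages was not analysed here.

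Reads assigned to genes numbered 4479182 to 8180286 per RNA-seq library and 4069968 to 17859770 per footprint library, the fewest in footprint KO replicate 3. Footprint reads of the deleted Mir181a-1 row fell from 148 ± 16.8 to 0.828 ± 0.317 in counts per 1e+06 reads in genes (CPM; SD, n = 3), which checks the footprint labels; the Mir181b-1 row had 0 reads in every library. In RNA-seq the Mir181a-1 row had 57 reads in WT and 67 in KO, so it does not check the RNA-seq labels, and directions there are given by label. The 10 thymocyte markers summed to 12130 CPM or more in every RNA-seq library, and none was called there. In footprints 3 were called higher in KO (Cd4, Themis and Cd2) and 2 lower (Rag1 and Lck), beside 9.25% and 8.34% of all genes. Of these, Cd4 alone was called with the block (0.57 on the log2 scale, edgeR FDR 0.00335, with the block 0.0121). The 8 endothelial markers summed to 172 to 178 CPM in WT and 204 to 214 CPM in KO in RNA-seq, nearly all from Pecam1, which leukocytes also make and which was called higher in KO in both assays (edgeR FDR 0.0358 and 0.0423; with the block 0.589 and 0.497); the other 7 averaged 5.03 CPM or less in every group. Deviations of same-numbered WT and KO libraries from their group means mirrored each other across genes (r from -0.99 to -0.95), so the spread within a group may not measure that between mice. Each test is therefore given by edgeR's quasi-likelihood method without a block and, where it bears on a call, with the replicate number as a block. An adjusted p (FDR) under 0.05 over all genes tested was called.

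Of the 9 members, 8 passed the filter on low counts in both assays, and Heyl in neither. In RNA-seq 1 of the 8 tested members was called, Maml1, as lower in KO; over all 13652 genes tested, 6.91% were called, 3.43% as lower and 3.48% as higher. In footprints none of the 8 was called, where 17.6% of 13509 genes were, 8.34% as lower and 9.25% as higher. At an unadjusted p under 0.05 (edgeR) lay Maml1 and Nrarp in RNA-seq, where 23.8% of all genes did, and Notch1 and Hes1 in footprints, where 33.1% did. DESeq2 called no member in either assay. The median log2 fold change of the tested members was -0.09 in RNA-seq and -0.03 in footprints, beside -0.00053 and -0.009 over all genes tested. Groups of WT and KO libraries did not overlap for 3 members in RNA-seq, all lower in KO (Maml1, Nrarp and Heyl, the last not among the genes tested). In footprints they did not overlap for 1, Notch1, higher in KO. Over all genes tested, the groups were separate in 30.9% in RNA-seq (KO wholly lower in 15.4%) and in 38.1% in footprints (KO wholly higher in 18.5%).

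**Figure D1:**
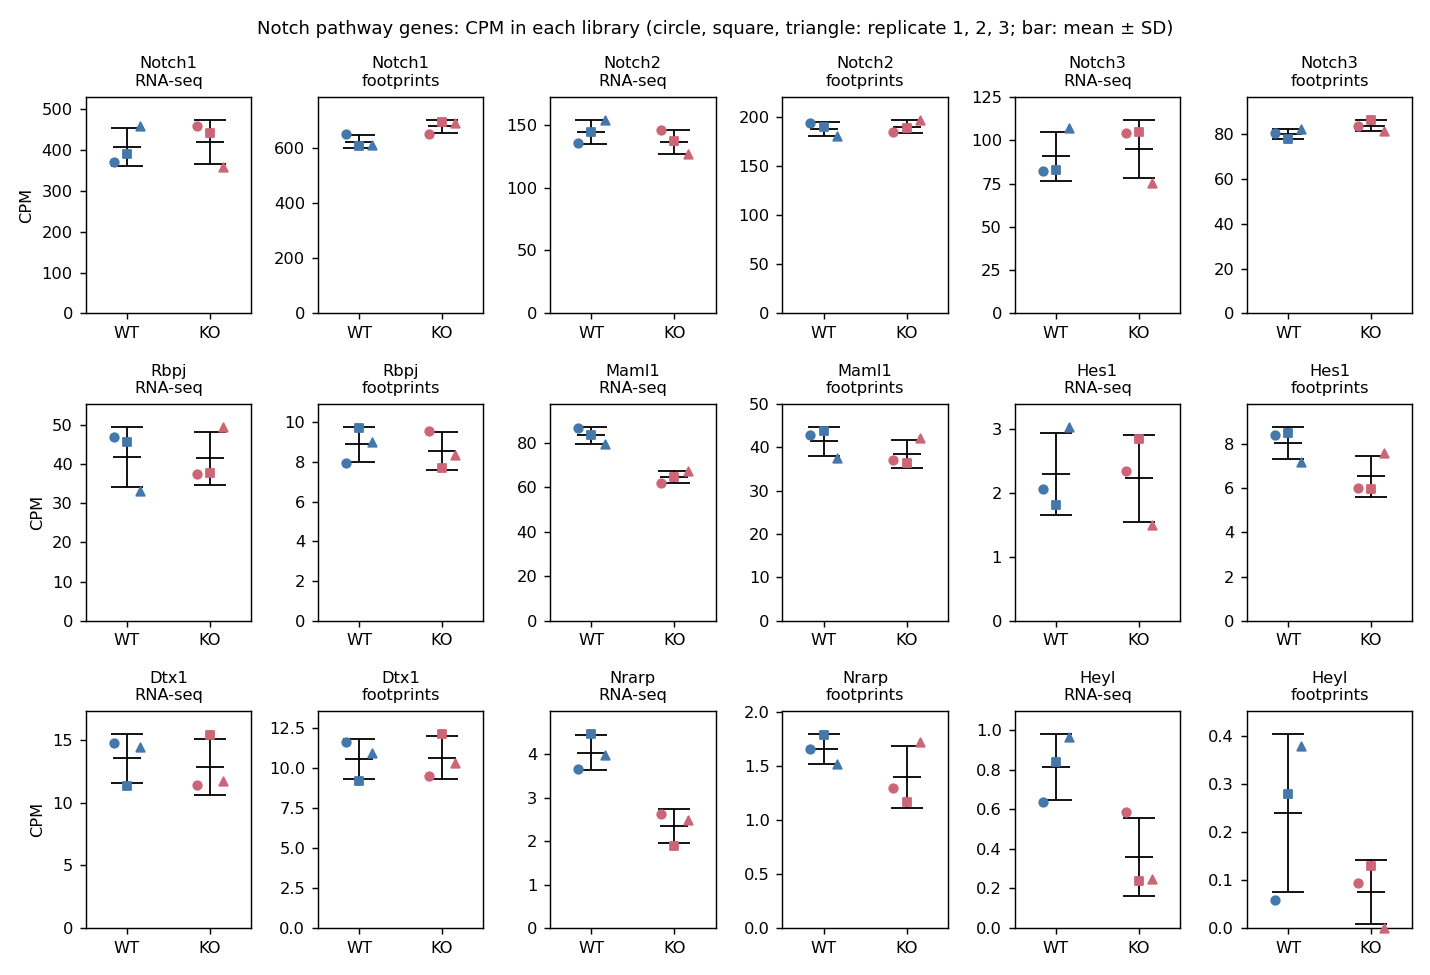
CPM of each member in each library of RNA-seq and footprints, for WT (blue) and KO (red); symbols mark the replicate number, horizontal bars the mean and whiskers 1 SD (n = 3), and each panel has its own linear axis from 0. WT and KO libraries separate in RNA-seq for Maml1, Nrarp and Heyl and in footprints for Notch1, while the others overlap.

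The receptors did not pass the test in either assay. Notch1, the receptor that drives T cell commitment, had 371, 390.4 and 459 CPM in the 3 RNA-seq libraries labelled WT and 459.8, 442 and 359 CPM in those labelled KO, in replicate order. The 2 ranges overlap almost wholly, and replicate 3 was the highest WT library and the lowest KO library. The log2 fold change was 0.05 (SE 0.12, edgeR FDR 0.86). In footprints Notch1 had 651, 609.6 and 612 CPM in WT and 653, 697 and 691 CPM in KO. Every KO library lay above every WT library there, although KO and WT replicate 1 nearly met, and the log2 fold change of 0.12 (SE 0.04) did not pass the threshold (edgeR FDR 0.109; with the block 0.534).

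Notch2, a receptor best known among lymphocytes for marginal zone B cells, had 135, 144 and 154 CPM in WT and 146, 137 and 126 CPM in KO in RNA-seq. Its footprints were 194, 189.9 and 180.6 CPM in WT and 185, 189 and 197 CPM in KO. The genotypes overlapped in both assays, with log2 fold changes of -0.08 (SE 0.08) and 0.01 (SE 0.04; edgeR FDR 0.572 and 0.89). Notch3, a receptor of early thymocytes and of vascular mural cells, had 82.2, 83.1 and 107 CPM in WT and 104, 105 and 75.6 CPM in KO in RNA-seq. In footprints it was steadier, at 80.5, 77.9 and 82.3 CPM in WT and 83.9, 86.5 and 81.5 CPM in KO. Its log2 fold changes were 0.06 (SE 0.16) and 0.07 (SE 0.04; edgeR FDR 0.869 and 0.268). For both genes the footprint libraries of 1 genotype differed from each other less than the RNA-seq libraries did, with SDs for Notch3 of 2.25 and 2.52 CPM in footprints against 14.1 and 16.9 CPM in RNA-seq (WT and KO, n = 3).

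Of the nuclear cofactors, Maml1 was lower in KO in RNA-seq and Rbpj was not called. Maml1, the Mastermind coactivator, had 86.8, 83.7 and 79.3 CPM in WT-labelled RNA-seq libraries and 62.0, 64.4 and 67.2 CPM in KO-labelled ones. The lowest WT library lay above the highest KO library. Its mean fell from 83.3 ± 3.75 to 64.6 ± 2.61 CPM (SD, n = 3), which is 0.776 of the WT level (log2 fold change -0.37, SE 0.06, edgeR FDR 0.0243). The fall was seen in all 3 replicate numbers, at log2 ratios of -0.48, -0.38 and -0.24. DESeq2 did not call it (adjusted p 0.0637), nor did edgeR with the block (FDR 0.377) or with any single library of the 6 left out (edgeR FDR 0.0551 to 0.101, log2 fold change -0.40 to -0.33). The authors' deposited table gives Maml1 a log2 fold change of -0.33 and an adjusted p of 0.0491 in RNA-seq.

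In footprints Maml1 had 42.9, 43.7 and 37.6 CPM in WT and 37.1, 36.3 and 42.2 CPM in KO. Here the genotypes overlapped, since replicate 3 was low in WT and high in KO, and the log2 fold change was -0.13 (SE 0.08, edgeR FDR 0.307). Rbpj, which encodes the DNA-binding partner of all Notch receptors, had 46.9, 45.6 and 33.1 CPM in WT and 37.4, 37.9 and 49.4 CPM in KO in RNA-seq. Its footprints were 7.96, 9.68 and 9.003 CPM in WT and 9.56, 7.67 and 8.35 CPM in KO. Both ranges overlap, with log2 fold changes of 0.004 (SE 0.17) and -0.06 (SE 0.12; edgeR FDR 0.995 and 0.758). Values of Rbpj are uncertain because multiply aligned reads have a row of their own in the tables and the annotation holds pseudogene copies: Rbpj-ps3 had 146 reads over the 6 footprint libraries, beside 407 in WT and 255 in KO for Rbpj, and 7 over the 6 RNA-seq libraries.

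The target and feedback genes were scarcer than the receptors in reads, with 3 to 482 per genotype and assay. Nrarp, the feedback inhibitor and published miR-181 target, had 3.66, 4.46 and 3.99 CPM in WT-labelled RNA-seq libraries and 2.63, 1.89 and 2.49 CPM in those labelled KO. Every KO library was lower, by log2 ratios of -0.47, -1.24 and -0.68 for the 3 replicate numbers. The log2 fold change was -0.75 (SE 0.16), or 0.595 of the WT level, and did not pass the threshold (edgeR FDR 0.0533; with the block 0.518). It rests on 84 reads in WT and 46 in KO, whose ratio has a 95% exact binomial interval of 0.406 to 0.862, covering counting error only. Nrarp thus showed no higher RNA level in the libraries labelled KO.

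In footprints Nrarp had 1.66, 1.79 and 1.52 CPM in WT and 1.30, 1.17 and 1.72 CPM in KO. Replicate 3 of KO lay inside the WT range, and the log2 fold change of -0.37 was not called (edgeR FDR 0.346; with the block 0.757). From 77 reads in WT and 39 in KO, the counting interval of the ratio ran from 0.509 to 1.14. That interval covers counting error only and not the spread between libraries. With the block the log2 fold change was -0.32 (edgeR, SE 0.40). The authors' deposited table lists Nrarp at log2 fold changes of -0.33 in RNA-seq and -0.10 in footprints (adjusted p 0.485 and 0.802).

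Hes1, a repressor and the best-known direct Notch target, had 2.07, 1.81 and 3.03 CPM in WT and 2.34, 2.84 and 1.497 CPM in KO in RNA-seq, from 48 and 40 reads. The genotypes overlapped, and the counting interval of the ratio, 0.58 to 1.41, shows how little these reads limit a change. In footprints it had 8.41, 8.50 and 7.20 CPM in WT and 6.03, 5.98 and 7.61 CPM in KO. KO replicate 3 lay above WT replicate 3, and the log2 fold change of -0.37 (SE 0.11) was not called (edgeR FDR 0.0741; with the block 0.464). Dtx1, the ubiquitin ligase, had 14.8, 11.3 and 14.5 CPM in WT and 11.4, 15.4 and 11.7 CPM in KO in RNA-seq. Its footprints were 11.6, 9.17 and 10.9 CPM in WT and 9.46, 12.1 and 10.3 CPM in KO. Both assays overlapped, with log2 fold changes of -0.10 (SE 0.16) and 0.03 (SE 0.13; edgeR FDR 0.753 and 0.895).

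Heyl, a repressor of the Hairy family that is also known from vascular smooth muscle, was near the limit of detection. It had 17 RNA-seq reads in WT and 7 in KO, at 0.636, 0.837 and 0.964 CPM in WT and 0.585, 0.237 and 0.249 CPM in KO. The ratio of reads has a counting interval of 0.157 to 1.14, which includes an equal level, so a fall was not resolved at this depth. Footprints gave 10 reads in WT and 3 in KO, and 0 in KO replicate 3, a library whose 3-read limit is 0.736 CPM. Of the 8 mesenchyme and mural markers, 1 was called in RNA-seq, Pdgfrb, as higher in KO (0.64 on the log2 scale, edgeR FDR 0.0314). The summed level of the 8 was 50.9 to 54.8 CPM in WT and 48.7 to 51.9 CPM in KO. In footprints Pdgfrb was again called higher (0.62, edgeR FDR 0.0184), and Rgs5 (-0.95, edgeR FDR 0.00786) and Acta2 (-0.98, edgeR FDR 0.04998) were called lower. None of these calls held with the block. The footprint sum was 119.97 to 165 CPM in WT and 137 to 193 CPM in KO. The part of these markers in the Heyl values was not tested.

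**Figure D2:**
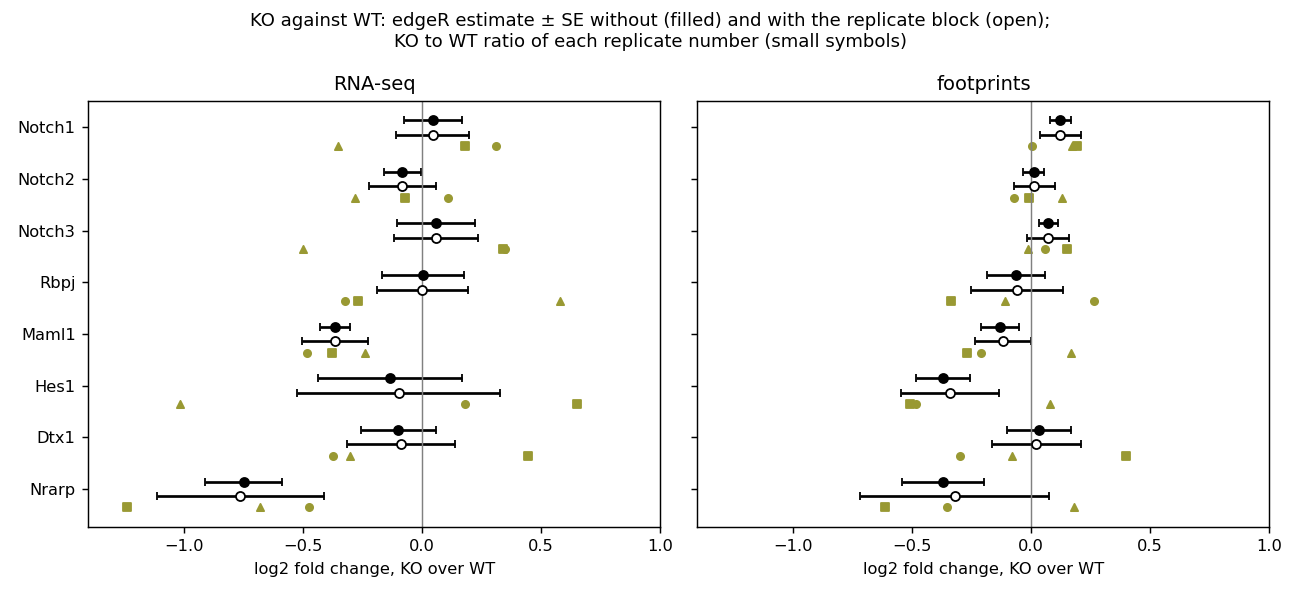
Log2 fold change of KO over WT for the 8 tested members in RNA-seq (left) and footprints (right); filled circles are edgeR estimates without a block and open circles those with the replicate block, whiskers are 1 SE, and the small symbols give the KO to WT ratio of each replicate number. Maml1 and Nrarp lie left of 0 for all 3 numbers in RNA-seq, and in footprints their replicate 3 lies right of 0.

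Whether the KO effect differed between footprints and RNA was tested as an interaction over all 12 libraries. None of the 8 members was called (edgeR), where 0.211% of 11854 genes were, and 14% had an unadjusted p under 0.05. The estimates ran from -0.23 for Hes1 to 0.38 for Nrarp on the log2 scale, with edgeR FDR of 0.353 or more. Of the 8, 6 were positive, beside 6164 of the 11854 genes tested. Maml1, at 0.24 (SE 0.11, edgeR FDR 0.353), was the only member with an unadjusted p under 0.05. DESeq2 called none of the 7 members to which it gave an adjusted p; it gave none to Nrarp. The lower Maml1 RNA level in KO and its smaller footprint difference are therefore not shown to differ.

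Footprints relative to RNA, in contrast, differed widely among the members within WT. The ratio was set relative to the median of the 11854 genes tested, so a value of 0 is that of the typical gene. Footprints cover coding sequence and RNA-seq reads whole messages, and the part of untranslated length in these ratios was not tested. Of the 8 members, 6 differed from the median gene, 3 above and 3 below (edgeR FDR under 0.05), beside 82.9% of all genes tested (41.9% above and 41% below), so a call alone does not set these members apart.

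Hes1 stood highest, with 4.01 times the footprints per RNA of the median gene (log2 ratio 2.00, SE 0.20, edgeR FDR 2.32e-07), and 94.7% of genes had a ratio no higher than its own. Notch1 (0.82, SE 0.09) and Notch2 (0.58, SE 0.08) also lay above the median gene. Notch3 (0.02, SE 0.10) and Dtx1 (-0.16, SE 0.14) did not differ from it (edgeR FDR 0.858 and 0.317). Below it were Maml1 (-0.80, SE 0.08), Nrarp (-1.07, SE 0.19) and Rbpj (-2.03, SE 0.14), the last with 0.244 times the footprints per RNA of the median gene and a ratio above that of 8.13% of genes. The part of the pseudogene copies of Rbpj in that value was not tested.

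Notch1 and Notch2 thus lay above the median gene in WT, Notch3 did not differ from it, and Maml1 and Rbpj lay below it. In KO the log2 ratios had the same order, from 1.74 for Hes1 through 0.87 for Notch1, 0.65 for Notch2, 0.003 for Notch3, -0.05 for Dtx1, -0.60 for Maml1 and -0.72 for Nrarp to -2.14 for Rbpj. These calls kept their side of the threshold in WT with the replicate block, with DESeq2 and without any 1 of the 6 WT libraries. In the wider pathway list described below, 2 of 9 nuclear complex genes lay above the median gene in WT and 5 below. Of its 4 receptors, 2 lay above and 1 below (edgeR FDR under 0.05), beside 41.9% and 41% of all genes tested. In RNA-seq 50.9% to 57.1% of counted reads were assigned to no annotated feature, against 5.32% to 6.39% in footprints. Whether that counting used strand is not given, and the part of unprocessed RNA in these ratios was not tested.

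**Figure D3:**
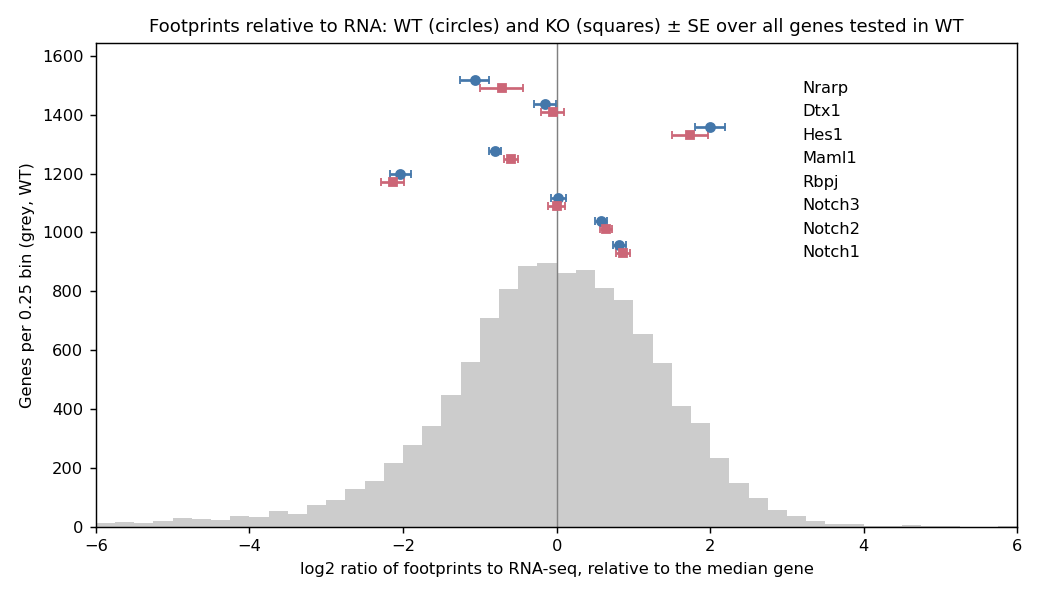
Log2 ratio of footprints to RNA-seq relative to the median gene; the grey histogram counts the genes tested in WT in bins of 0.25 (a few genes lie outside the axis), and circles (WT) and squares (KO) give each member ± 1 SE, on rows with no vertical scale. Hes1 lies near 2 and Rbpj near -2 in both genotypes, with Notch3 and Dtx1 near 0.

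The wider pathway was followed through a list of 69 genes that holds all 9 members, of which 61 were tested in RNA-seq and 63 in footprints. In RNA-seq 5 of the 61 were called, 1 higher and 4 lower in KO, beside 6.91% of all genes tested. In footprints 8 of 63 were called, 3 higher and 5 lower, beside 17.6% of all genes tested. The median log2 fold change of the list was -0.0083 in RNA-seq and -0.0085 in footprints. With the block 1 gene remained in each assay, Il2ra both times, where 0.806% and 3.02% of all genes were called, and none of 61 was called for the interaction.

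Il2ra, the interleukin-2 receptor alpha chain that marks early thymocytes and is a known Notch target, rose in both assays. In RNA-seq it had 56.0, 55.9 and 47.4 CPM in libraries labelled WT and 91.0, 90.7 and 105 CPM in those labelled KO. This was a log2 fold change of 0.85, with an SE of 0.10 (edgeR FDR 0.00675; block, 0.0198). Its footprints rose from 92.8 ± 1.63 to 121 ± 2.47 CPM (n = 3, SD), or by 0.38 on the log2 scale with an SE of 0.03 (edgeR FDR 0.00159; block, 0.0446). KO and WT libraries were separate in both assays, and the calls held without any 1 library. The interaction estimate of Il2ra was -0.47 on the log2 scale and was not called (edgeR FDR 0.0946). Among the 8 markers of early double-negative thymocytes, which include Il2ra and Ptcra, Il2ra was the only one called in RNA-seq (edgeR, 6 tested). In footprints, with all 8 tested, Il2ra was called higher and Ptcra lower (-0.37, edgeR FDR 0.0293, with the block 0.155). Without Il2ra, the other 7 summed to 61.4 to 69.5 CPM in WT and 60.4 to 68.9 CPM in KO in RNA-seq, and to 138 to 157 CPM in WT and 136 to 155 CPM in KO in footprints, so the genotypes overlapped in both assays.

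Of the 15 target genes on the list, 11 were tested in each assay; in RNA-seq 1 was called higher and 1 lower, and in footprints 1 higher and 2 lower, beside 6.91% and 17.6% of all genes called. With the block Il2ra alone was called. Ptcra, the pre-T cell receptor alpha chain, had a mean of 43.3 ± 3.27 CPM in WT footprints and fell to 33.6 ± 2.64 CPM in KO (n = 3, SD). This was -0.37 on the log2 scale (edgeR FDR 0.0293, with the block 0.155). Myc, a driver of cell growth, fell in footprints from 182 ± 0.996 to 159.6 ± 1.30 CPM. This was -0.19 on the log2 scale (edgeR FDR 0.00917, with the block 0.29). In RNA-seq both were also lower without being called, Ptcra at -0.52 and Myc at -0.23 (edgeR FDR 0.063 and 0.362). Tcf7, a T lineage transcription factor, fell in RNA-seq from 2086 ± 77.6 to 1739.6 ± 68.3 CPM (-0.26 on the log2 scale, edgeR FDR 0.0477; with the block 0.563) and stood at 0.02 in footprints (edgeR FDR 0.897). None of the 3 called falls was called with the block. DESeq2 called the footprint fall of Ptcra (adjusted p 0.0255). It did not call that of Myc in footprints or that of Tcf7 in RNA-seq (DESeq2 adjusted p 0.0843 and 0.0636). The authors' deposited table gives adjusted p-values of 0.0274 for Ptcra and 0.0307 for Myc in footprints. Leaving out any single RNA-seq library ended the Tcf7 call (edgeR FDR 0.0861 to 0.164). In footprints the Ptcra call was lost without replicate 2 or 3 of either genotype (-0.43 to -0.30 over the 6 omissions), and the Myc call without KO replicate 1.

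Among genes that modify the receptor are the fringe glycosyltransferases Lfng and Mfng, which set how receptors respond to Delta and Jagged ligands. Each was called in 1 assay only, Lfng as lower in RNA-seq and Mfng as higher in footprints. Lfng fell in RNA-seq, from 39.6, 33.6 and 41.3 CPM in libraries labelled WT to 23.7, 28.2 and 22.3 CPM in those labelled KO (-0.64 on the log2 scale, SE 0.12, edgeR FDR 0.0312; block, 0.174). Its footprints were also lower, without passing the threshold (-0.49, edgeR FDR 0.0519), and the authors' deposited table gives adjusted p-values of 0.0102 and 0.0103 for the 2 assays. Mfng rose in footprints, with means of 14.1 ± 1.21 CPM in WT and 18.2 ± 1.64 CPM in KO (n = 3, SD; 0.39 on the log2 scale, edgeR FDR 0.0373; with the block 0.254). In RNA-seq Mfng stood at 0.07 (edgeR FDR 0.791). Pofut1, which adds fucose to Notch, fell in footprints (-0.25, edgeR FDR 0.0147, with the block 0.349) and stood at -0.10 in RNA-seq (edgeR FDR 0.506). Without 1 library, the Lfng call was lost in 4 of 6 omissions (replicates 1 and 3 of either genotype), the Pofut1 call in 4 of 6 (replicates 1 and 2) and the Mfng call in all 6. DESeq2 called Lfng in RNA-seq and footprints (adjusted p 0.00766 and 0.00447). In footprints it called neither Mfng nor Pofut1 (DESeq2 adjusted p 0.106 and 0.232). The authors' deposited table gives adjusted p-values of 0.136 for Mfng and 0.223 for Pofut1 in footprints.

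Jag1, a ligand, had 3.18 ± 0.392 CPM in WT and fell to 1.60 ± 0.368 CPM in KO in RNA-seq (n = 3, SD; -0.92 on the log2 scale, edgeR FDR 0.0438; with the block 0.443), from 66 and 32 reads, and stood at -0.07 in footprints. Of the 5 ligand genes, 2 were tested in RNA-seq and 4 in footprints; ligands in the thymus come largely from epithelial cells. Kat2a, an acetyltransferase, fell in footprints (-0.18, edgeR FDR 0.0372, with the block 0.445). In RNA-seq it was also lower without being called (-0.45, edgeR FDR 0.0838). Numb, which promotes receptor turnover, rose in footprints (0.32, edgeR FDR 0.0374, with the block 0.21) and stood at 0.12 in RNA-seq (edgeR FDR 0.533). The Jag1 and Kat2a calls were lost without any 1 library of their assay, and that of Numb without replicate 2 or 3 of either genotype. DESeq2 did not call Jag1 in RNA-seq (adjusted p 0.405), nor Kat2a or Numb in footprints (0.35 and 0.0552). The authors' deposited table gives these adjusted p-values of 0.432, 0.319 and 0.0705, in the same order. The 8 thymic epithelial markers summed to 104 to 120 CPM in WT and 99.8 to 113 CPM in KO in RNA-seq. Most of this came from Ccl25 and Prss16 (means of 58.4 and 30.3 CPM in WT). Of 7 tested there, 1 was called, Krt5, as lower (-1.07 on the log2 scale, edgeR FDR 0.0228, with the block 0.248). In footprints 1 of 8 was called, Epcam, as lower (-0.50, edgeR FDR 0.0339, with the block 0.104). The part of these markers in the Jag1 values was not tested.

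**Figure D4:**
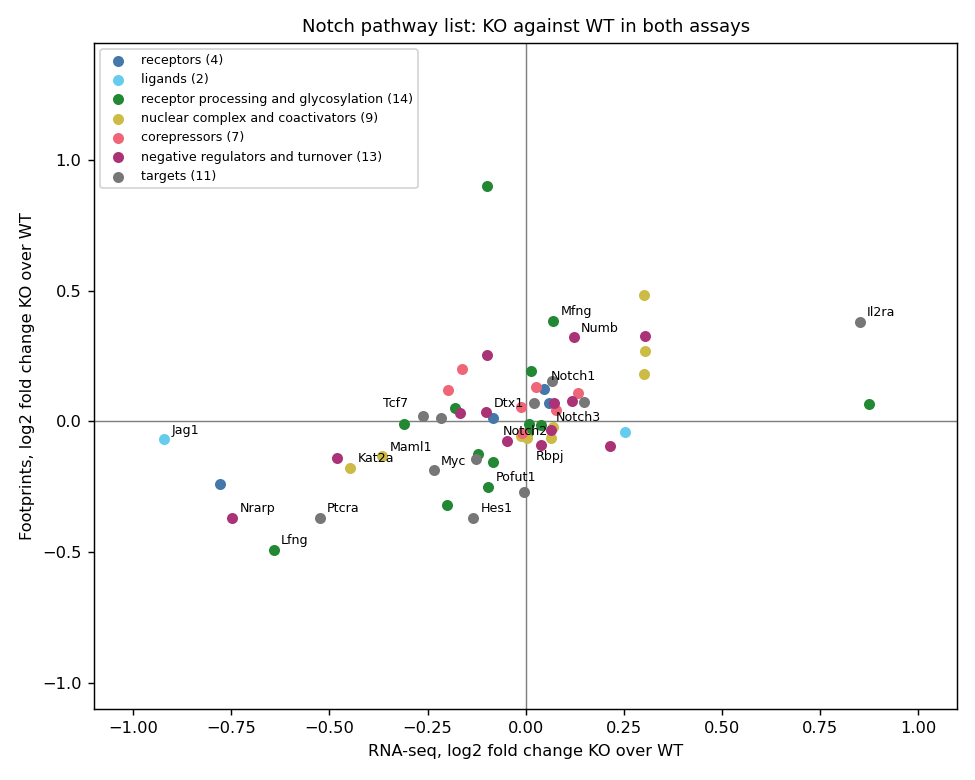
Log2 fold change of KO over WT in RNA-seq (x axis) and footprints (y axis) for genes of the Notch pathway list tested in both assays (1 is not shown), coloured by role with the number of genes in parentheses; the tested members and the called genes shown are named. Among named genes Il2ra lies farthest right, Lfng, Ptcra and Nrarp at lower left, and Notch1, Notch2 and Notch3 close to 0 on both axes.

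RBPJ binds a short motif, TGGGAA at its core and CGTGGGAA in a longer form. Both were sought on either strand (TTCCCA and TTCCCACG on the other) in RefSeq promoter windows of 300 bases, 250 before and 50 after each start site (GRCm38.p6). The table matched 7 of the 9 members, all except Hes1 and Heyl. Only Rbpj itself held the core motif among the 7, and none held the longer form, where 25.6% and 0.734% of the 32851 windows of the table did. The stretch around the Rbpj matches is at chr5:53590186-53590295 on the plus strand, with the core motif of either strand in capitals. Of 8 matched called genes of the wider list, 3 held the core motif (Kat2a, Lfng and Ptcra) and 1 the longer form, Lfng, shown at chr5:140607196-140607255 on the plus strand with both motifs in capitals.
Rbpj: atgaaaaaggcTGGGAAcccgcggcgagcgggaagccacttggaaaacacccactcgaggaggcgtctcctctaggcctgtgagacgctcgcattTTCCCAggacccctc
Lfng: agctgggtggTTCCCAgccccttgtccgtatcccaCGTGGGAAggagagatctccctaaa
The 2 Rbpj matches begin 149 and 65 bases before 1 of its annotated start sites, and the longer Lfng match 110 bases before. These matches describe letters in the window and do not show binding, and the longer form contains the core.

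Across the 12 libraries, each centred on its assay's mean, Notch1 and Notch3 had the most similar profiles of any pair of members (Pearson r = 0.92, n = 12), and Notch1 and Rbpj the most opposite (-0.90). Maml1 and Nrarp followed at 0.88. These are descriptions: libraries of 1 number mirror each other, so the 12 points are not independent. Among 4453 other genes that averaged 5 or more in log2 CPM in each assay, the 2 profiles nearest to Notch1 were those of Dennd4b (0.98) and Sdf4 (0.95), and nearest to Notch3 Zc3h4 and Wdr91 (0.97 each). For Nrarp, Dtx1 and Hes1 (4454 candidates) they were Hsdl1 (0.97) and Thumpd1 (0.95), Selenow (0.97) and Dnmt3a (0.96), and Cog2 (0.98) and Zfp646 (0.97).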

How the data were processed

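For each assay the authors deposited a table of counts, whole numbers of reads for every Ensembl gene, which their file names call adjusted without saying how. Its 5 rows for reads not assigned to a gene, which include multiply aligned reads, were left out. They held 71.5% to 73.0% of counted reads in RNA-seq and 26.9% to 27.8% in footprints. The submitters' processing notes name Bowtie2 2.5.1, STAR 2.7.10a, HTSeq 2.0.3 and DESeq2 1.40.2 without roles. No source used here gives the genome build, the annotation or whether counting used strand. The authors' deposited tables of their own comparison gave log2 fold changes and adjusted p-values; 12 columns of per-library values in them were not used. Symbols matched 55154 of 55335 gene IDs.

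Counts were analysed with edgeR 4.0.16 in R 4.3.3: TMM factors, filterByExpr (minimum count 10), the quasi-likelihood test and Benjamini-Hochberg adjustment over all genes tested, each assay alone. Interaction and footprint-to-RNA fits used TMM factors within each assay; the ratio was centred on its median (-0.25 on the log2 scale). CPM are on TMM-scaled totals, and an SE is the log2 fold change over the root of F. For several genes this SE is smaller than the counting error. They include Nrarp in both assays, Jag1 in RNA-seq, and Hes1, Pofut1 and Kat2a in footprints. The model fits were tested on simulated data. Named genes were the 9 members, every called gene of the pathway list except 1, counted but not reported here, and the 2 nearest profiles of 5 members. Members and lists were chosen with earlier results of these data known. Alternatives were RLE factors, DESeq2 1.42.0, no low-count filter, the replicate block, omission of each library and unscaled totals. No label says that the 3 libraries of a group came from separate mice, so p-values measure only the spread between these libraries, which may be technical.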

Additional observations from a re-analysis of the deposited data

Results flagged for a closer look

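Among the members, the genes of the wider list and the Mir181 rows, the interaction test set 1 apart, for unequal KO effects in the 2 assays. It was Mir181a-1, the row of a deleted microRNA gene, at -7.80 on the log2 scale (edgeR FDR 0.000318; 7.74e-05 to 0.00463 over the 12 omissions of 1 library). No Notch pathway gene did. Groups of 3 libraries are too small for a test of single outlying samples.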

How the results depend on the processing

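With the replicate block, 110 genes instead of 943 were called in RNA-seq, 408 instead of 2376 in footprints, 2 instead of 25 for the interaction (block within each assay), and 0 members instead of 1 in RNA-seq; it changed no other call of a member. Deviations of same-numbered libraries correlated at -0.99 to -0.95 in RNA-seq (8010 genes) and -0.99 in footprints (8643 genes), other pairs at 0.18 to 0.71 and 0.36 to 0.64, so no library correlates best with its own number. DESeq2 gave 532, 1248 and 46 calls, and 0 members in RNA-seq; the cause was not tested. It placed Rbpj in RNA-seq at -0.0015, a change of sign. RLE factors and no low-count filter left each member's direction and side of the threshold as they were, and unscaled totals moved no member's level beyond 1 SD.

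With 1 library left out, RNA-seq had 215 to 323 calls, footprints 1035 to 1554 and the interaction 6 to 24, with 0 members called in RNA-seq (0 to 0), footprints and interaction; fewer samples lower these by construction. Calls of the footprint-to-RNA ratio ranged from 9533 to 9707, with 6 members each time. The sign of several members not called turned in some omissions. In RNA-seq, log2 fold changes ranged from -0.026 to 0.14 for Notch1, -0.020 to 0.20 for Notch3, -0.15 to 0.083 for Rbpj and -0.29 to 0.13 for Hes1, and from -0.23 to 0.63 for Mir181a-1. In footprints they ranged from -0.020 to 0.039 for Notch2, -0.17 to 0.040 for Rbpj and -0.11 to 0.14 for Dtx1. For the interaction they ranged from -0.031 to 0.14 for Notch1, -0.14 to 0.090 for Notch3, -0.18 to 0.081 for Rbpj and -0.013 to 0.25 for Dtx1, and for the ratio in WT from -0.051 to 0.14 for Notch3. Depth limits Heyl, Hes1 and Nrarp, with 3 to 84 reads per genotype apart from Hes1 footprints.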
